A study of Mus musculus with 4 samples.

Results

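The complement genes measured here were C1qa, C1qb, C1qc, C3, C4b, Cfb, Cfp, C3ar1 and C5ar1, which were picked by name from the gene list of the count matrices and make up 9 of its 27998 genes. All 9 were in all 4 matrices. Complement is a cascade of plasma and locally made proteins that tags dead cells, debris and microbes for uptake. The classical route starts when C1q, built from the A, B and C chains, binds its target and leads to cleavage of C4 and then C3, while the alternative route amplifies C3 cleavage through factor B and is held together by properdin. The fragments C3a and C5a are read by the receptors C3AR1 and C5AR1 on myeloid cells, and tissue macrophages are a well known local source of C1q.

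The study asked how the transcription factor BACH1 acts in the myeloid cells of regenerating muscle. CD45+ leukocytes, taken with magnetic beads out of the injured tibialis anterior muscle, came from male C57BL/6 mice of 8 to 12 weeks. The injury was made with cardiotoxin, a snake venom peptide that kills myofibres, and the cells were profiled by droplet 3′ single-cell RNA sequencing. There were 4 libraries, 1 for each of 2 genotypes at 2 and at 4 days post-injury (dpi2 and dpi4). Control mice were Bach1 fl/fl, and the libraries labelled KO came from Bach1 fl/fl mice that also carried Lyz2 Cre, called Bach1-cKO below. Both genotypes therefore carried loxP sites around exon 4 of Bach1, which encodes the DNA-binding domain, and Cre came under control of Lyz2, a gene that monocytes, macrophages and neutrophils use.

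With 1 library per group there was no replicate check of any difference between groups, and no p-value is given. Each level below is the number of unique molecular identifiers (UMIs) of a gene per 1000000 UMIs of the class in that library (CPM), and every 95% interval covers counting error only, not the spread between mice. A ratio was called higher or lower when it was at least 2-fold, when its interval left out equality and when the pair held at least 50 UMIs. Ratios are given as log2 values, with Bach1-cKO over control or dpi4 over dpi2, and "rose" or "fell" is used only for ratios past that rule.

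The matrices held 4177 to 6602 barcodes and 57010520 to 80228489 UMIs per library, of which 3433 to 5721 cells per library were kept. Clusters were named from marker genes and gave macrophage-like, monocyte-like, neutrophil-like, dendritic-like and T or NK-like cells, written below without the suffix. In the order control dpi2, Bach1-cKO dpi2, control dpi4 and Bach1-cKO dpi4, these held 1959, 1093, 3036 and 2605 macrophages, 2576, 977, 54 and 68 monocytes, 630, 790, 128 and 35 neutrophils, and 326, 247, 395 and 433 dendritic cells. All per-library values below follow this order. Pairs of libraries shared 2 to 14 barcodes. Lyz2 in macrophages was 8121, 13.0, 18355 and 24.3 CPM, near 0 in both libraries labelled KO, while Bach1 was 123, 144, 214 and 227 CPM, which does not test the deletion because 3′ counts do not read exon 4.

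All 9 genes lie on the minus strand of GRCm38 (mm10) and are protein coding. C1qa (chr4:136895917-136898803), C1qc (chr4:136889804-136893065) and C1qb (chr4:136880129-136886187) sit side by side. C4b (chr17:34728380-34743882) and Cfb (chr17:34856374-34862518) lie on the same chromosome as C3 (chr17:57203970-57228136). Cfp is at chrX:20925454-20931555, C3ar1 at chr6:122847138-122856161 and C5ar1 at chr7:16246743-16259540. C4b has a near-identical copy, C4a, that is not among the genes of the matrices, so its UMIs are uncertain, and Cfb borders C2 on the same strand.

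Promoter windows of 300 bases, 250 before and 50 after the start site, were taken from RefSeq on GRCm38.p6 and were matched for 6 of the 9 genes (not C1qa, C4b or Cfb). The windows of 4 genes are shown because C1qb and C1qc moved together with time and because C3 and C3ar1 carried genotype differences past the rule. Each reads 5′ to 3′ along the gene's minus strand. Capitals mark matches, on either strand, to 3 sets of letters that were searched in every window. The first, TGACTCA, is the core of AP-1 and Bach-type elements. The second, TGCTGA, is the outer part of a Maf recognition element and stands as its reverse complement in C3 and in C3ar1. The third, GAGGAA, is a PU.1-type core and stands as its reverse complement in C1qc. No match overlapped another in the windows shown.
C1qb, chr4:136886151-136886450: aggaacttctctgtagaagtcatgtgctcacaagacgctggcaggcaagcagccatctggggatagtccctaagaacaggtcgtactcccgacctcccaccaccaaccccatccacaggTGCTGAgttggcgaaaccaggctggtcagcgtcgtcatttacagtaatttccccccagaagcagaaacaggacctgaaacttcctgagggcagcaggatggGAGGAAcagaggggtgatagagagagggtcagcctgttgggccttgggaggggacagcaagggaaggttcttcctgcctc
C1qc, chr4:136892865-136893164: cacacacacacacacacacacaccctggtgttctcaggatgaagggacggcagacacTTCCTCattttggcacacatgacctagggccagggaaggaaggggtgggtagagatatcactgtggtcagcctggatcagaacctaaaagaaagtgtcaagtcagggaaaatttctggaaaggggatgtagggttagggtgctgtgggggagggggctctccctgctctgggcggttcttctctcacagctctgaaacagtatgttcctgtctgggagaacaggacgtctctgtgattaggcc
C3, chr17:57228087-57228386: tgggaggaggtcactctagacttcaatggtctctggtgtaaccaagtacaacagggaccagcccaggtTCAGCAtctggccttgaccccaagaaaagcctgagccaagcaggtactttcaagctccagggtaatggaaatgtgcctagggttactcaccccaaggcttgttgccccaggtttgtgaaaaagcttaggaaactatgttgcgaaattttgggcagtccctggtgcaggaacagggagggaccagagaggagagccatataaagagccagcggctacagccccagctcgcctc
C3ar1, chr6:122856108-122856407: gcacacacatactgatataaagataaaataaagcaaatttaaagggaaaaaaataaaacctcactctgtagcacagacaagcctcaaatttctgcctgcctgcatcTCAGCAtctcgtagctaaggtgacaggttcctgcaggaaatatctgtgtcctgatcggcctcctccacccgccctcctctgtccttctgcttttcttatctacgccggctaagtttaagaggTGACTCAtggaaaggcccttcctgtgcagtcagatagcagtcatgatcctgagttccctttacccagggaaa
Of the 6 windows, only that of C3ar1 held TGACTCA, with its first base at position -22 from the start site, and 5.20% of all 32851 windows of this length held it. TGCTGA was at -131 in C1qb, -182 in C3, -144 in C3ar1 and -17 in C5ar1, against 19.5% of all windows. GAGGAA was at -30 in C1qb and -193 in C1qc and at 7 and 23 bases past the start site in Cfp, against 28.3% of all windows. The GENCODE spans of C1qc and C5ar1 begin upstream of these RefSeq start sites, within the window. Part of the stretch before the start site thus lies inside the annotated gene, as does the C5ar1 match at -17. These are matches of letters in a window and were not tested as binding sites.

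Each gene had its own distribution over the leukocytes. At dpi2 macrophages held 80.3% to 90.2% of the UMIs of each C1q chain, while monocytes held 88.4% of C3 UMIs in control and 53.6% in Bach1-cKO. Such shares follow class size as well as level, and monocytes made up 45.0% of the kept cells in control and 26.5% in Bach1-cKO. C5ar1 was highest in neutrophils and C3ar1 in macrophages in all 4 libraries, and Cfp was spread over all 4 myeloid classes. The plot of levels by class shows these patterns for all 9 genes.

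**Figure D1:**
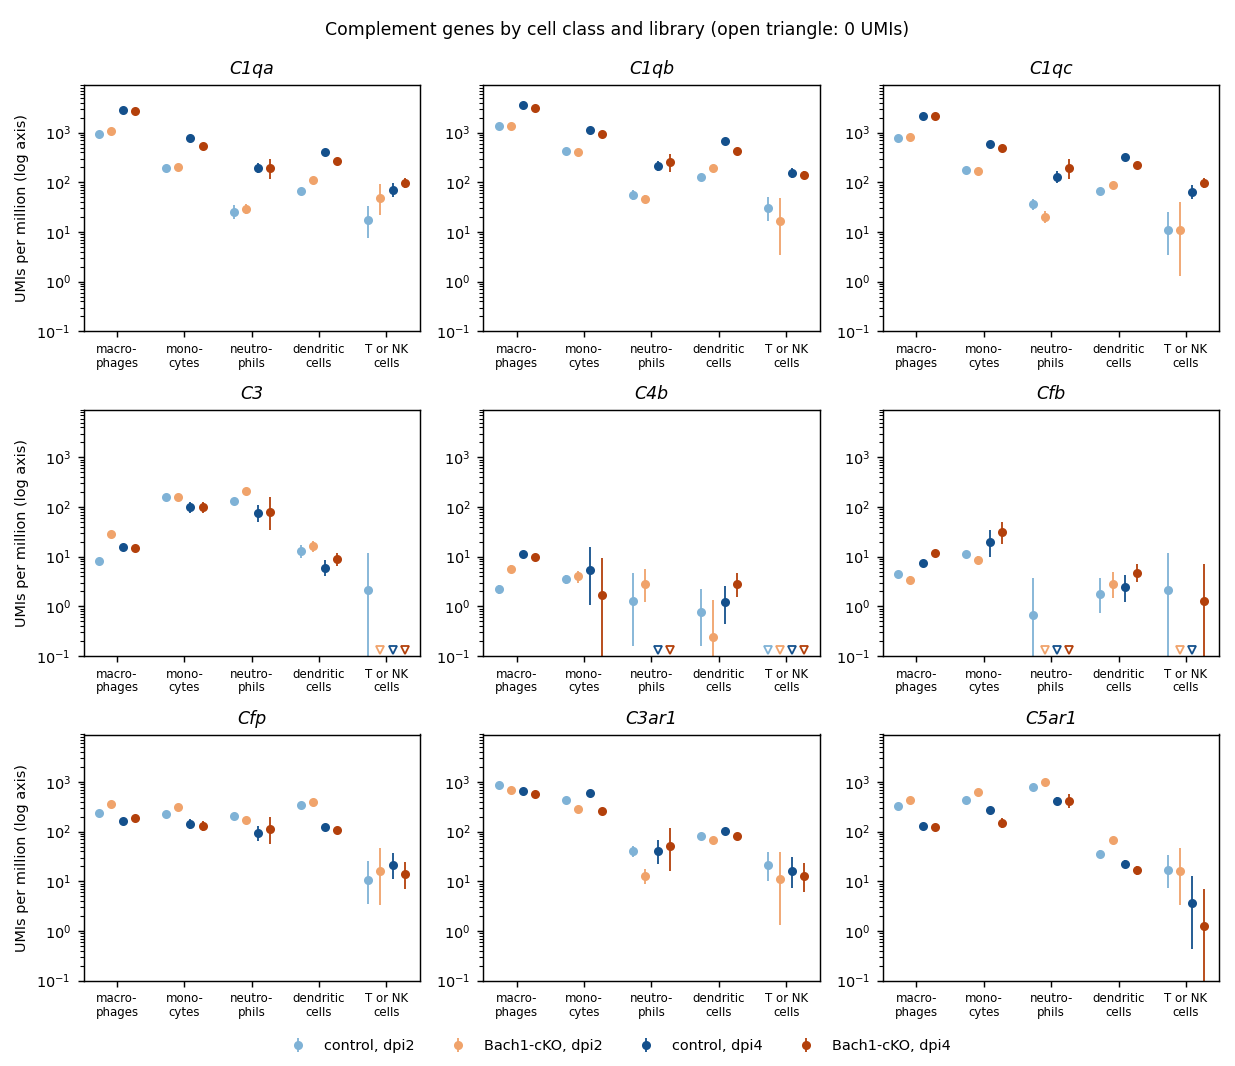
Levels of the 9 complement genes in CPM (log axis) in 5 cell classes, with 1 point per library (light blue and orange, dpi2; dark blue and red, dpi4) and bars for the 95% counting interval; an open triangle marks 0 UMIs. The C1q chains were highest in macrophages and higher at dpi4 than at dpi2 in every class shown, C3 was highest in monocytes and neutrophils, and C5ar1 was highest in neutrophils.

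The number of members past the rule is read against the share of all tested genes past it. In macrophages 2 of 9 members were higher in Bach1-cKO at dpi2, where 4.45% of genes were past the rule, and 0 of 9 differed at dpi4, where 2.3% were. Between the time points 4 members rose and 1 fell in control macrophages, against 15.9% of genes, and 4 rose and 1 fell in Bach1-cKO macrophages, against 13.8%. The median log2 ratio of the members between time points was 0.93 in control and 0.79 in Bach1-cKO, beside -0.07 and -0.05 for all genes tested. The genotype medians of the members were 0.19 at dpi2 and -0.08 at dpi4, beside -0.02 and 0.01 for all genes.

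In monocytes none of 9 members passed between genotypes at dpi2, against 4.54% of genes, and 1 of the 7 with enough UMIs was lower at dpi4, against 3.46%. With time 3 of 9 rose in control, against 6.71%, and 4 rose and 2 fell in Bach1-cKO, against 8.86%. In neutrophils 1 of 7 was lower in Bach1-cKO at dpi2, against 9.6%, and none of 4 passed at dpi4, against 6.48%. With time 3 of 7 rose and 1 fell in control neutrophils, against 15.1%, and 3 of 6 rose and 2 fell in Bach1-cKO, against 17.9%. In dendritic cells none of 7 passed between genotypes at dpi2, against 2.81%, or at dpi4, against 1.44%. With time 3 of 7 rose and 2 fell in dendritic cells of each genotype, against 7.16% of genes in control and 6.57% in Bach1-cKO.

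**Figure D2:**
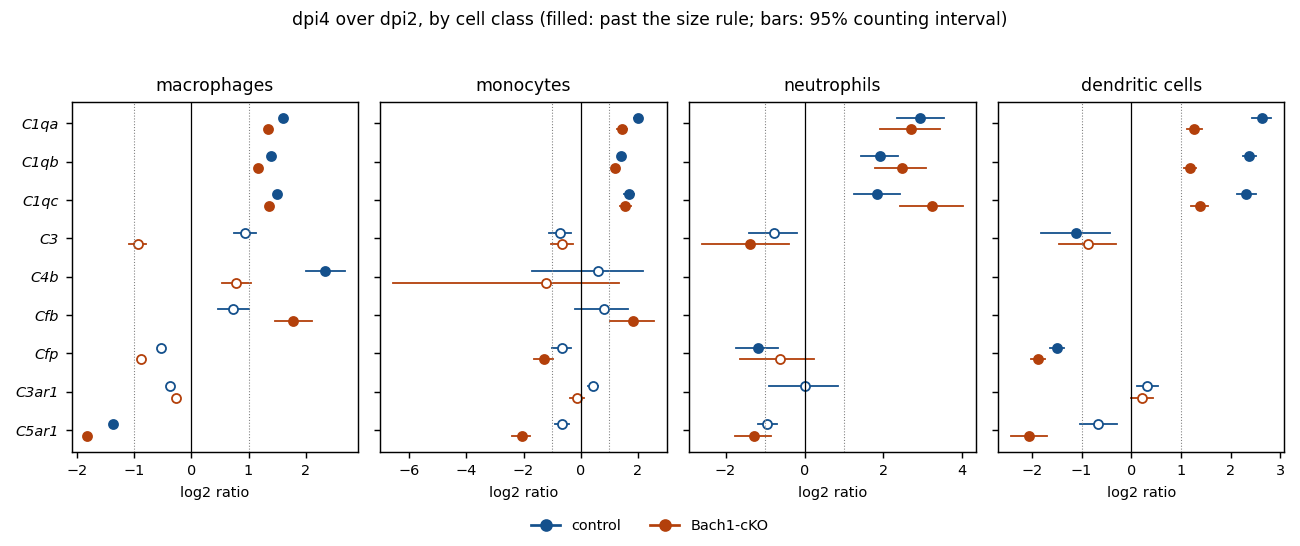
Log2 ratio of dpi4 over dpi2 for each gene in 4 cell classes, in control and in Bach1-cKO; bars give the 95% counting interval and filled points are past the size rule. The C1q chains lie to the right of 1 in every class and both genotypes, and C5ar1 lies left of 0 throughout.

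C1q, the recognition protein of the classical route, was measured through the transcripts of its 3 chains. In macrophages C1qa was 931, 1061, 2832 and 2681 CPM. C1qb was 1343, 1358, 3547 and 3059 CPM, and C1qc was 772, 833, 2167 and 2128 CPM. For each chain both dpi4 libraries were above both dpi2 libraries, and the genotypes at 1 time point lay close to each other.

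All 3 chains rose between dpi2 and dpi4 in macrophages. The log2 ratio was 1.61 (1.59 to 1.62) for C1qa, 1.40 (1.39 to 1.41) for C1qb and 1.49 (1.47 to 1.51) for C1qc in control. In Bach1-cKO it was 1.34, 1.17 and 1.35. The summed level of the 12 macrophage markers in the same class moved too, at 14935, 18143, 35621 and 29528 CPM, and its part in the C1q ratios was not tested. The cluster makeup differed between the time points, and with each cluster given the same weight in both libraries, an alternative chosen after seeing the data, the control ratio was 1.30 for C1qa and 1.11 for C1qc and missed 2-fold for C1qb at 0.96.

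Between genotypes no C1q chain passed the rule in macrophages. The log2 ratios were 0.19, 0.02 and 0.11 for C1qa, C1qb and C1qc at dpi2 and -0.08, -0.21 and -0.03 at dpi4. The intervals of C1qa, from 0.17 to 0.21 at dpi2 and from -0.09 to -0.07 at dpi4, left out 0, so counting error was smaller than these differences, while the spread between mice was not measured. Within the 6 macrophage clusters at dpi2 that could be compared, C1qa was higher in Bach1-cKO in 3 and lower in 3. The exception past the rule was the cluster led by Mmp12, with 35 control and 41 Bach1-cKO cells, where C1qa was 564 CPM in control and 218 in Bach1-cKO.

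The chains kept nearly the same proportions in macrophages. C1qa made up 30.6%, 32.6%, 33.1% and 34.1% of the C1q UMIs, C1qb 44.1%, 41.8%, 41.5% and 38.9%, and C1qc 25.3%, 25.6%, 25.4% and 27.0%. In monocytes at dpi2 the C1qa share was lower, at 24.0% in control and 25.6% in Bach1-cKO. Across macrophages of at least 2000 UMIs, the chain levels were scaled to each cell's total UMIs, without thinning. Their logs had Pearson r of 0.74 to 0.92 in pairs within a library, which describes cells that share their library.

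To compare how many cells carried C1q, the UMIs of every cell were thinned to 2000, which left out the shallower cells. C1qb was then detected in 67.4%, 67.4%, 95.1% and 94.5% of macrophages (81.8%, 82.9%, 98.7% and 97.7% without thinning). T and NK cells, which are not known to make C1q, gave the free-RNA background, with C1qb in 6%, 2.78%, 23.0% and 28.1% of cells. The unthinned shares in T and NK cells were 12.7%, 8.33%, 67.1% and 47.7%, at median depths of 3951, 4736.5, 4962 and 4846 UMIs against 18137, 26289, 16211 and 15334 UMIs in macrophages. The share in macrophages was far above this background, and the background itself was higher at dpi4.

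In neutrophils C1qb was found in 9.5%, 8.39%, 29.4% and 37.5% of thinned cells, with intervals that overlapped those of the T and NK shares. C1qa at dpi4 was found in 30.3% (22.2% to 39.3%) of control neutrophils against 12.2% (5.71% to 21.8%) of control T and NK cells, and in 25% against 18.0% in Bach1-cKO. The T and NK shares of C1q were also higher at dpi4 than at dpi2, and the part of background RNA in the neutrophil time ratios was not tested. In dendritic cells the summed level of the chains was 261, 386, 1404 and 919 CPM, and the summed level of 12 macrophage markers in the same cells was 1230, 1663, 5078 and 2844 CPM, with none of the 12 at 0. Both sums had the same order over the libraries, and the part of macrophage RNA in the dendritic values was not tested. The genotype ratio of C1qa in dendritic cells was 0.73 (0.51 to 0.96) at dpi2, and the dpi4 value was -0.63 (-0.73 to -0.53), both under 2-fold. The dpi2 ratio ran from -0.14 with at least 200 detected genes per cell to 2.89 with each library clustered by itself, and the dpi4 ratio was -1.45, past 2-fold, in that last setting. With each library clustered by itself the C1qa time ratio in Bach1-cKO dendritic cells reversed from 1.27 to -0.86.

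In monocytes C1qa was 193, 199, 776 and 541 CPM, and the 54 and 68 monocytes of dpi4 both lay above the dpi2 libraries. All chains rose with time in monocytes of both genotypes, with log2 ratios of 1.40 to 2.01 in control and 1.21 to 1.56 in Bach1-cKO. The 12 macrophage markers moved too, at 4986, 6158, 13350 and 7640 CPM, and their part in the result was not tested. With each library clustered by itself all 6 of these time ratios missed 2-fold. In control they were then 0.29 for C1qa, 0.34 for C1qb and -0.096 for C1qc, and in Bach1-cKO they were 0.68, -0.30 and 0.25, so the rise in monocytes depends on how those cells were named.

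C1q also differed between macrophage clusters of the same library. At dpi4 C1qa was highest in the cluster led by Pltp, Apoe and C1qa itself, at 3977 CPM in control and 3751 CPM in Bach1-cKO, and in the cluster led by Ccl8 and Igfbp4, at 3612 and 3799 CPM. The cluster led by Mmp12, Mfge8 and Gpnmb had 1704 and 1648 CPM. Clusters were drawn without the 9 genes, and levels across them are a description. Clusters that came mostly from 1 library, such as that led by Slc40a1, Vcam1 and Spic with 72 control and 732 Bach1-cKO cells, cannot be told apart from that library.

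**Figure D3:**
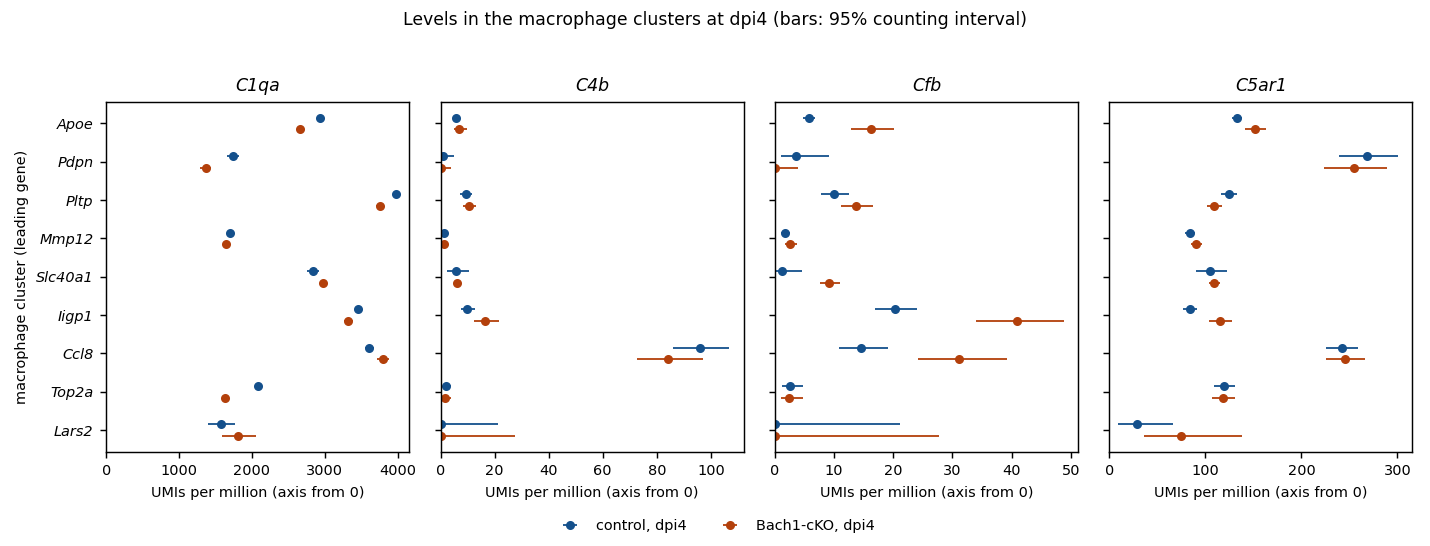
Levels of C1qa, C4b, Cfb and C5ar1 in CPM (linear axis from 0) in the 9 macrophage clusters at dpi4, named by their leading gene, with 1 point per genotype and bars for the 95% counting interval. C4b stands at 95.9 (control) and 84.3 CPM (Bach1-cKO) in the Ccl8 cluster, and Cfb is higher in Bach1-cKO in the Apoe, Slc40a1, Iigp1 and Ccl8 clusters.

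C3, the component on which all routes converge, was higher in monocytes and neutrophils than in the other two myeloid classes, although macrophages, the most numerous cells at dpi4, held 73.2% of its UMIs in control and 84.8% in Bach1-cKO at that time. Monocytes held 161, 156, 98.1 and 99.0 CPM and neutrophils 129, 209, 75.3 and 80.7 CPM. Macrophages held 8.10, 28.0, 15.4 and 14.6 CPM, from 306, 838, 861 and 678 UMIs. The Bach1-cKO library of dpi2 was thus the highest of the 4 in macrophages, while the genotypes did not separate in monocytes.

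In macrophages at dpi2 C3 was higher in Bach1-cKO, with a log2 ratio of 1.79 (1.60 to 1.98). At dpi4 the ratio was -0.08 (-0.22 to 0.07), and the difference between the time points was -1.86 (-2.10 to -1.63, counting error only). In monocytes the ratio was -0.05 (-0.12 to 0.03) at dpi2. When monocytes and macrophages were pooled, the dpi2 ratio was -0.083, and the control pool held 2576 monocytes to 1959 macrophages and the Bach1-cKO pool 977 to 1093.

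The C3 difference was also seen inside clusters. All 4 macrophage clusters of dpi2 with at least 50 UMIs were higher in Bach1-cKO, 3 of them past the rule. C3 was 14.0 CPM in Bach1-cKO against 5.89 in control in the cluster led by Pdpn, 28.9 against 13.4 in that led by Ppbp and Cd163, and 35.6 against 8.77 in that led by Mmp12. The remaining cluster did not pass. With equal cluster weights the ratio was 1.28.

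Markers of the C3-rich classes did not move alike in these macrophages. The summed level of 8 neutrophil markers was 111, 281, 95.9 and 75.7 CPM, highest in the same library as C3, with 1 of the 8 at 0 in that library. The summed level of 8 monocyte markers was 1113, 908, 455 and 383 CPM, lower in Bach1-cKO than in control at dpi2. Their part in the C3 difference was not tested. C3 was detected in 1.79% of control and 5.74% of Bach1-cKO macrophages at dpi2 after thinning (11.4% and 32.7% without), and in 0 of 100 and 0 of 36 T and NK cells, which at 2000 UMIs allows shares of up to 3.62% and 9.74% by the exact binomial interval.

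At dpi4 C3 was uneven among the macrophage clusters although the class ratio was near 0. It was higher in Bach1-cKO in the cluster led by Pltp, at 25.4 against 9.69 CPM, and in that led by Slc40a1, at 13.0 against 4.98 CPM with 8 UMIs in control. It was 23.8 against 29.1 CPM in the cluster led by Iigp1 and 5.08 against 7.18 CPM in that led by Mmp12, neither past the rule.

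In neutrophils the C3 genotype ratio was 0.70 (0.46 to 0.93) at dpi2, under 2-fold, where the median of all genes was -0.30. C3 fell with time in Bach1-cKO neutrophils, by 1.37 on the log2 scale from 598 UMIs to 8, and in control dendritic cells, by 1.11 from 50 UMIs to 30. The dendritic ratio was -0.37, under 2-fold, as a mean over cells of each cell's CPM. In macrophages the C3 time ratio was 0.93 in control and -0.93 in Bach1-cKO, neither past 2-fold. The Bach1-cKO ratio was -2.30 with equal cluster weights, and the control ratio turned to -2.15 when monocytes and macrophages were pooled.

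**Figure D4:**
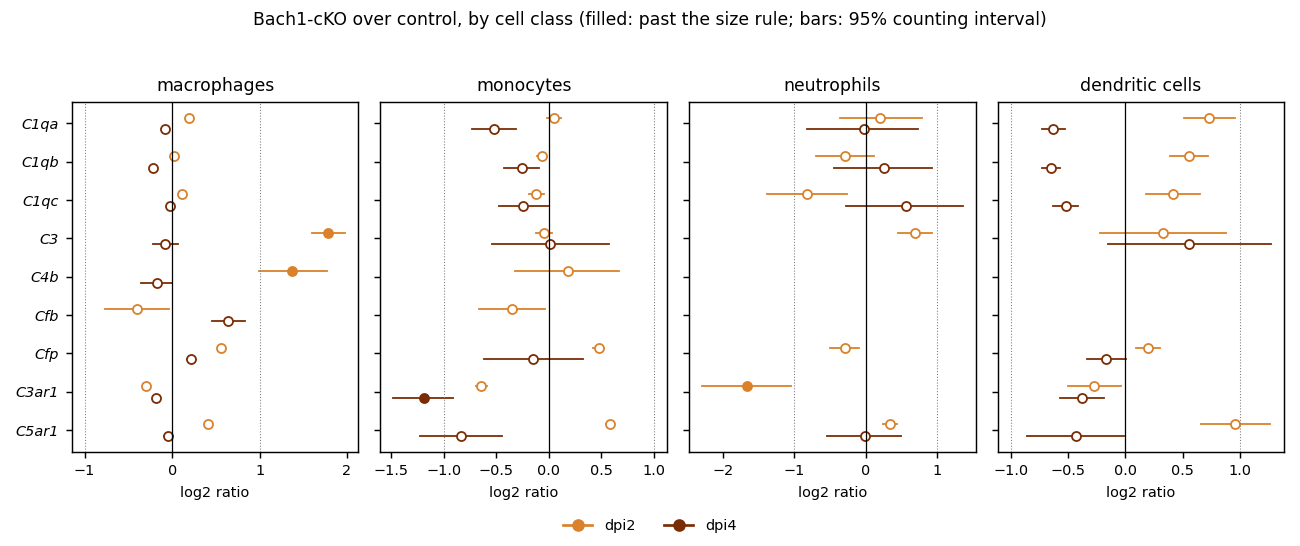
Log2 ratio of Bach1-cKO over control for each gene in 4 cell classes, at dpi2 and dpi4; bars give the 95% counting interval and filled points are past the size rule. C3 and C4b in macrophages at dpi2 are the only points past the rule on the right, and C3ar1 in neutrophils at dpi2 and in monocytes at dpi4 the only points past it on the left.

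C4b, the mouse C4 that C1s cleaves in the classical route, was a rare transcript. In macrophages it was 2.20, 5.71, 11.1 and 9.85 CPM, from 83, 171, 619 and 456 UMIs, so that control dpi2 was the lowest library. It was higher in Bach1-cKO at dpi2, with a log2 ratio of 1.38 (0.99 to 1.77), and the dpi4 ratio was -0.17 (-0.35 to 0.00). Pooling monocytes with macrophages gave 0.91 at dpi2, under 2-fold.

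With time C4b rose in control macrophages, with a log2 ratio of 2.34 (2.00 to 2.68), and stayed under 2-fold in Bach1-cKO at 0.79 (0.53 to 1.05). With equal cluster weights these were 0.75 and -1.61. At dpi4 the C4b UMIs sat in 1 cluster above all, that led by Ccl8, Igfbp4 and C4b itself. It had 222 control and 198 Bach1-cKO cells, at 95.9 and 84.3 CPM. C4b was at most 16.5 CPM in the other macrophage clusters. The Ccl8 cluster held 0 control and 4 Bach1-cKO cells at dpi2, so equal weights could not compare its level with time. At dpi2 the cluster led by Ppbp and Cd163 had 10.2 CPM in Bach1-cKO against 4.30 CPM in control, a log2 ratio of 1.24 past the rule.

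Cfb, the serine protease of the alternative route, was rare as well. Macrophages held 4.45, 3.37, 7.41 and 11.6 CPM and monocytes 11.04, 8.67, 19.3 and 30.7 CPM, the last 2 from 11 and 18 UMIs. Bach1-cKO was the lower monocyte library at dpi2, at a log2 ratio of -0.35, and equal cluster weights turned this to 0.64. Both monocyte clusters with at least 50 UMIs were higher in Bach1-cKO, at 13.5 against 8.33 CPM (log2 0.70) in that led by Vcan, Plac8 and Chil3 and 18.4 against 9.16 CPM, past the rule, in that led by F10, Il7r and Ccl2. In macrophages Bach1-cKO was the lower library at dpi2 and the higher at dpi4, with log2 ratios of -0.40 (-0.77 to -0.04) and 0.64 (0.46 to 0.83). Neither reached 2-fold, and the difference between the time points was 1.04 (0.64 to 1.45). Cfb rose with time in Bach1-cKO macrophages, with a ratio of 1.78 (1.47 to 2.10) against 0.74 in control. The Bach1-cKO ratio turned to -0.23 with equal cluster weights. At dpi2 the Bach1-cKO library had 3, 4, 19 and 3 cells in the clusters led by Iigp1, Ccl8, Apoe and Slc40a1, which limits that value.

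The dpi4 genotype difference of Cfb was also seen inside clusters. Of 5 macrophage clusters with at least 50 UMIs all 5 were higher in Bach1-cKO and 4 passed the rule. Cfb was 16.2 against 5.68 CPM in the cluster led by Apoe, 40.9 against 20.3 in that led by Iigp1, Ifit2 and Ifi44, and 31.1 against 14.6 in that led by Ccl8. In the Slc40a1 cluster it was 9.18 against 1.25 CPM, the latter from 2 UMIs, a ratio of 7.37 with an interval of 2.00 to 61.6. The cluster led by Pltp had 13.7 against 9.96 CPM, a log2 ratio of 0.46 that did not pass. With equal cluster weights the class ratio was 1.09 and past the rule. Control had 1149 and Bach1-cKO 351 cells in the Apoe cluster, so the class values weight the clusters differently.

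Cfp, which encodes properdin, was found in all 4 myeloid classes. In macrophages it was 238, 352, 165 and 192 CPM, in dendritic cells 341, 392, 121 and 107 CPM, in monocytes 226, 313, 142 and 128 CPM, and in neutrophils 209, 170.0, 91.5 and 111 CPM. At dpi2 Bach1-cKO was above control in 3 of these classes and below it in neutrophils, where the log2 ratio of -0.30 was that of the median gene. The log2 ratios were 0.56 (0.52 to 0.60) in macrophages and 0.47 (0.42 to 0.53) in monocytes, both under 2-fold, and 5 of 6 macrophage clusters and all 3 monocyte clusters lay above 0.

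In all 4 myeloid classes Cfp was lower at dpi4 than at dpi2. It fell in dendritic cells, with log2 ratios of -1.50 in control and -1.87 in Bach1-cKO, in control neutrophils (-1.19) and in Bach1-cKO monocytes (-1.29, or -0.83 when pooled with macrophages). In macrophages the ratios of -0.53 and -0.88 did not pass, and the control ratio was 0.054 with equal cluster weights. After thinning Cfp was detected in 40.8%, 43.0%, 15.3% and 16.5% of dendritic cells and in 2%, 5.56%, 1.35% and 3.12% of T and NK cells. Among the macrophages of dpi2, the cluster led by Ppbp and Cd163 had 504 CPM in control and 619 CPM in Bach1-cKO.

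C3ar1, the receptor for C3a, was highest in macrophages, at 859, 700, 663 and 582 CPM. Monocytes held 436, 279, 585 and 256 CPM and dendritic cells 83.0, 68.8, 104 and 80.0 CPM. In each of these 3 classes Bach1-cKO was below control at both time points. Most of these differences were under 2-fold, and with each library clustered by itself the dendritic log2 ratio turned from -0.27 to 1.10 at dpi2 and was -1.13 at dpi4.

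In macrophages the C3ar1 genotype ratio was -0.30 (-0.32 to -0.27) at dpi2, while dpi4 gave -0.19 (-0.21 to -0.16). All 6 macrophage clusters compared at dpi2 were below 0, from -0.67 to -0.03, and 7 of 9 were at dpi4, where the cluster led by Lars2 went the other way past the rule, at 233 against 115 CPM from 31 and 20 UMIs. In monocytes the ratio was -0.64 (-0.70 to -0.59) at dpi2, with all 3 clusters below 0, and at dpi4 C3ar1 was lower in Bach1-cKO, at -1.19 (-1.48 to -0.91), on 54 and 68 cells. With each library clustered by itself the dpi4 monocyte ratio was 0.31, so its direction depends on how those cells were named. In the dpi4 monocytes the 12 macrophage markers summed to 13350 CPM in control and 7640 CPM in Bach1-cKO. The 8 monocyte markers summed to 5527 and 7582 CPM, and the part of either in the C3ar1 ratio was not tested.

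Neutrophils carried little C3ar1, at 39.8, 12.6, 40.4 and 50.4 CPM from 61, 36, 15 and 5 UMIs. It was lower in Bach1-cKO at dpi2, at -1.66 (-2.30 to -1.04), where the median of all genes was -0.30. A cluster with neutrophil markers, of 90 control and 514 Bach1-cKO cells at dpi2, stayed unnamed and outside the class, and with it joined the ratio was -1.04. C3ar1 in T and NK cells was 21.4, 10.8, 16.2 and 12.5 CPM, and the Bach1-cKO dpi2 value of 10.8 CPM rests on 2 UMIs in 36 cells. The Bach1-cKO neutrophil level of dpi2 lay inside the interval of that background, 1.31 to 39.2 CPM. The thinned shares were 77.7%, 68.6%, 71.0% and 64.7% in macrophages and 4%, 0%, 2.70% and 2.34% in T and NK cells, where 0 of 36 allows up to 9.74%.

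**Figure D5:**
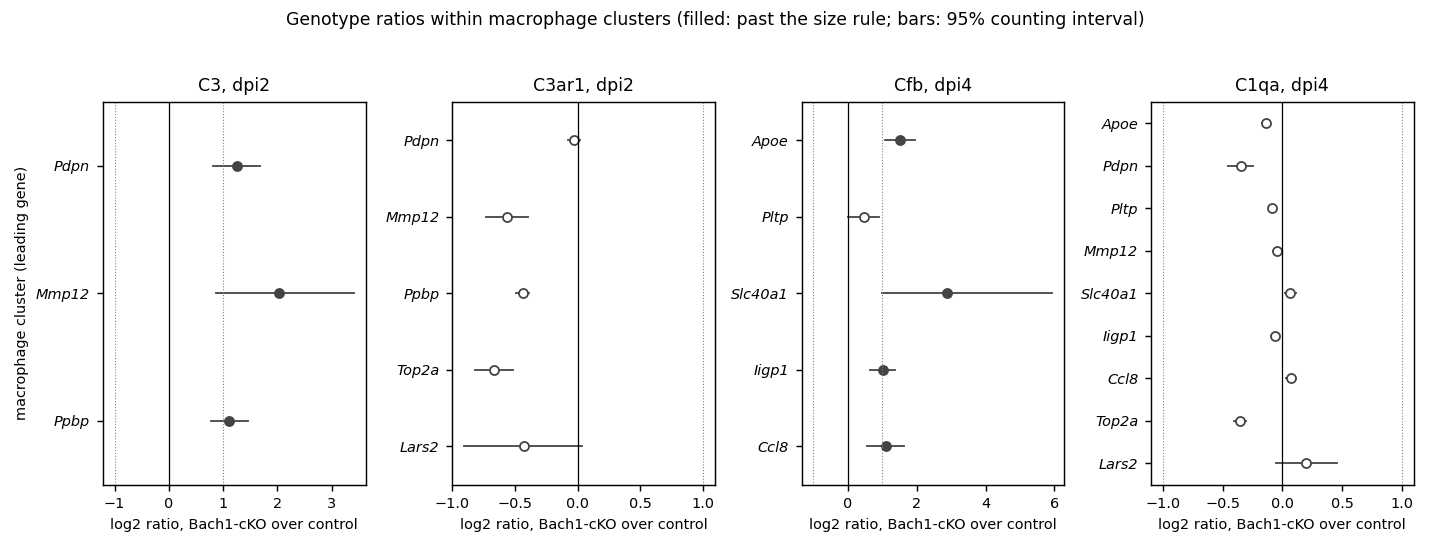
Log2 ratio of Bach1-cKO over control within macrophage clusters, named by their leading gene, for C3 and C3ar1 at dpi2 and Cfb and C1qa at dpi4; bars give the 95% counting interval, filled points are past the size rule, and the clusters drawn have at least 30 cells and 50 UMIs, with 1 cluster of dpi2 not drawn. C3 and Cfb lie right of 0 in every cluster drawn, C3ar1 lies left of 0 in every cluster drawn, and C1qa lies on both sides.

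C5ar1, the receptor for C5a, was highest in neutrophils, at 795, 1012, 414 and 413 CPM. Monocytes held 423, 632, 268 and 150.2 CPM, macrophages 325, 433, 127 and 123 CPM, and dendritic cells 35.2, 68.3, 22.3 and 16.5 CPM. In each class both dpi2 libraries were above both dpi4 libraries. T and NK cells had 17.1, 16.3, 3.60 and 1.25 CPM.

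C5ar1 fell with time in macrophages of both genotypes, by 1.36 on the log2 scale in control and by 1.82 in Bach1-cKO. It also fell in Bach1-cKO monocytes by 2.07, in Bach1-cKO dendritic cells by 2.05 and in Bach1-cKO neutrophils by 1.29, while the control ratios there were -0.66, -0.66 and -0.94. The summed level of 8 neutrophil markers moved between dpi2 and dpi4 too. In Bach1-cKO it was 281 and 75.7 CPM in macrophages, 423 and 61.4 CPM in monocytes, and 317 and 17.1 CPM in dendritic cells. In control it was 111 and 95.9, 221 and 119, and 116 and 101 CPM, and its part in the C5ar1 falls was not tested. With equal cluster weights the macrophage ratios were -0.28 in control and -0.62 in Bach1-cKO, under 2-fold. In the cluster led by Pdpn, which held 1162 control macrophages at dpi2 and 51 at dpi4, the level of C5ar1 stood at 276 and 269 CPM. In the cluster led by Ppbp and Cd163, present at dpi2, it was 539 CPM in control and 609 CPM in Bach1-cKO.

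Between genotypes C5ar1 at dpi2 was above control in Bach1-cKO in all 4 myeloid classes without passing the rule. Macrophages had a log2 ratio of 0.42 (0.38 to 0.45) and monocytes one of 0.58 (0.54 to 0.62), with 0.35 (0.25 to 0.45) in neutrophils and 0.96 (0.66 to 1.26) in dendritic cells. At dpi4 the ratio was -0.04 (-0.09 to 0.01) in macrophages, -0.84 in monocytes, -0.0028 in neutrophils and -0.43 in dendritic cells. The dpi4 monocyte ratio turned to 0.37 with each library clustered by itself. The dendritic ratio of dpi2 was -0.064 with at least 200 detected genes per cell and 2.12 with each library clustered by itself, and inside the 1 dendritic cluster compared it was 1.02 and past the rule. Of 6 macrophage clusters 4 lay above 0 at dpi2. The summed level of 8 neutrophil markers was also higher in Bach1-cKO at dpi2, at 281 against 111 CPM in macrophages, 423 against 221 CPM in monocytes and 317 against 116 CPM in dendritic cells, and their part in the C5ar1 values was not tested. C5ar1 was detected in 73.2%, 82.0%, 47.9% and 56.2% of thinned neutrophils against 1%, 2.78%, 0% and 0.781% of T and NK cells, where 0 of 74 allows up to 4.86%.

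A wider list of complement components, regulators and receptors, of which 40 genes are reported, was read in the same way. Between genotypes 12 had at least 50 UMIs in macrophages at dpi2, none of them past the rule against 4.45% of all genes, and 1 of 16 passed at dpi4 against 2.3%. This was Fcna, a ficolin of the lectin route, which was higher in Bach1-cKO, at 29.5 against 11.6 CPM and a log2 ratio of 1.34 (1.20 to 1.48), and which missed 2-fold at 0.98 with equal cluster weights. In monocytes none of 10 passed at dpi2, against 4.54% of all genes, and none of 5 at dpi4, against 3.46%. The median log2 ratio of this list in macrophages was 0.09 at dpi2 and 0.03 at dpi4, beside -0.02 and 0.01 for all genes.

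With time 4 of 15 genes of this list rose and none fell in macrophages of each genotype, against 15.9% of all genes past the rule in control and 13.8% in Bach1-cKO. C2, which encodes the classical convertase partner of C4b, rose by 3.14 in control and 2.25 in Bach1-cKO on the log2 scale. Itgax, a chain of complement receptor 4, rose by 2.64 and 2.35, and Fcna by 1.87 and 2.34. Vsig4, a receptor for C3 fragments on resident macrophages, had 1 UMI in control at dpi2 against 169 at dpi4, a log2 ratio of 6.84 with a wide interval of 4.34 to 12.15, and rose by 1.35 in Bach1-cKO. The median over the 15 genes was -0.04 in control and 0.09 in Bach1-cKO. With equal cluster weights the Itgax ratios were 0.64 and 0.65, under 2-fold, the Fcna ratio in Bach1-cKO was 1.17, and the C2 ratio in Bach1-cKO turned to -0.27.

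The genes whose log levels were most like each member over 20 sums of a class in a library, out of 5323 genes compared, are given as a description, since these sums share libraries and classes. Trem2 led for C1qa with a Pearson r of 0.975 and for C1qc with 0.970, and Ms4a7 led for C1qb with 0.971. Prdx5 led for C3 with 0.966, Itm2b for C4b with 0.883, Slc30a1 for Cfb with 0.924 and Basp1 for Cfp with 0.947. Nceh1 led for C3ar1 with 0.980 and Clec4d for C5ar1 with 0.992.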

How the data were processed

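CD45+ cells enriched from muscle were profiled in 4 libraries, and each deposited matrix keeps barcodes of at least 500 UMIs. Per the labels the authors used Cell Ranger 6.1.2 and mm10, and the deposited matrices hold raw UMI counts. The labels and the study's methods differ on the kit version. The study used miQC, scDblFinder, Harmony and SingleR. Here, in Python 3.11.15 with scanpy 1.11.5, cells with at least 500 detected genes and under 10% mitochondrial UMIs were kept, and the cells with the highest Scrublet scores were removed as doublets (0.8% per 1000 cells, 100 to 289 per library). All cells were clustered together on 2000 variable genes without the members, the wider list, Lyz1 and Lyz2 (30 components, 15 neighbours, Leiden resolution 1, 28 clusters, no batch integration), and clusters were named from marker lists. The neutrophil-marked cluster with low UMI counts and another cluster stayed unnamed.

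UMIs were summed per class and library. Intervals are exact Poisson for levels, exact conditional binomial for ratios and Clopper-Pearson for shares. Each share was taken after thinning to 2000 UMIs. Scripts were tested on simulated data. The genes named were the 9 members and those of the wider list past the size rule in macrophages or monocytes. C5ar2 and Itgam lie outside this rule and were chosen after their values were seen. The members, gene lists and alternatives were chosen with earlier results of these data known. Gene positions are from GENCODE vM21 and promoter windows from RefSeq. A test between groups could not be made with 1 library per group. Some genes are not reported here.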

Additional observations from a re-analysis of the deposited data

How the results depend on the processing

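No paired analysis was possible because each group had 1 library, and no library could be left out. Of 52 log2 ratios past the rule, 41 kept their direction under all alternatives run and 11 reversed under at least 1. The counts of members past the rule stayed within 1.5 times their value except as follows. With at least 200 detected genes, 0 members passed between genotypes in dpi4 monocytes and 1 in dpi4 neutrophils. With a mitochondrial share under 20%, 3 passed in dpi2 dendritic cells. With doublets kept, the counts between genotypes were 0 in dpi4 monocytes, 2 in dpi2 neutrophils and 1 in dpi2 dendritic cells. With each library clustered by itself they were 0 in dpi4 monocytes, 1 in dpi4 neutrophils, and 5 and 4 in dendritic cells at dpi2 and dpi4, and 3 passed with time in Bach1-cKO monocytes. With a mean over cells, 2 passed in dpi4 monocytes. At 1.5-fold, the genotype counts were 1 in dpi4 macrophages, 1 and 2 in monocytes, 3 in dpi2 neutrophils and 2 and 2 in dendritic cells, and with time 8 passed in Bach1-cKO macrophages and 6 in control monocytes. With at least 200 UMIs, 0 passed between genotypes in dpi2 neutrophils, and with time 1 and 2 in control and Bach1-cKO neutrophils. With equal cluster weights, chosen after seeing the data, 1 passed between genotypes in dpi4 macrophages and 2 with time in control macrophages.

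With each library clustered by itself, the monocyte log2 ratios reversed to 0.31 (C3ar1, genotype, dpi4), -0.10 (C1qc, time, control), -0.13 (Itgax, time, control), -0.30 (C1qb, time, Bach1-cKO) and -0.43 (Cfb, time, Bach1-cKO), and the time ratios in Bach1-cKO dendritic cells to -0.86 (C1qa), -1.19 (C1qb) and -0.99 (C1qc). Pooling monocytes and macrophages turned C3 between genotypes in macrophages at dpi2 to -0.083. Equal cluster weights turned Cfb and C2 with time in Bach1-cKO macrophages to -0.23 and -0.27. The clusters led by Iigp1, Ccl8, Apoe and Slc40a1 held 3, 4, 19 and 3 Bach1-cKO cells at dpi2, which limits the equal-weight time ratios. The causes were not tested. The 54 and 68 monocytes and 35 to 128 neutrophils of dpi4 limit what could be seen there.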

Other observations

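A cluster of cells with muscle transcripts, 298 in control and 54 in Bach1-cKO at dpi4, carried C1q at the level of macrophages. The summed level of C1qa, C1qb and C1qc was 8905 CPM in control and 9153 CPM in Bach1-cKO, beside 8546 and 7869 CPM in macrophages of the same libraries. The summed level of the 12 macrophage markers in these cells was 43268 and 32030 CPM, with none at 0.

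Fibroblasts, 39 and 15 cells at dpi4, had C3 at 86.4 CPM in control from 126 UMIs and 3.59 CPM in Bach1-cKO from 2 UMIs. C4b was 26.1 CPM there in control from 38 UMIs, and 1 UMI was counted in Bach1-cKO.

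C5ar2, the second C5a receptor, was 115, 120.0, 113 and 171 CPM in neutrophils and 25.3, 27.2, 20.9 and 29.6 CPM in macrophages, in the order control dpi2, Bach1-cKO dpi2, control dpi4 and Bach1-cKO dpi4. Itgam, a chain of complement receptor 3, was 352, 387, 210 and 197 CPM in macrophages and did not pass the size rule with time.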
